A study of Mus musculus with 48 samples.

Results

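Gfap and 9 further genes of astrocyte reactivity were followed across spatially profiled brain regions of 5xFAD-LynKO, 5xFAD and WT mice. The 10 genes are Gfap, Vim, Nes, Serpina3n, Aqp4, S100b, Gja1, Osmr, Cd44 and Lcn2. They were chosen by symbol, with their levels in these genotypes already known, and all 10 were present among the 19962 targets of the deposited table. The platform was GeoMx digital spatial profiling, in which probe tags are released by light from chosen areas of a tissue section and counted by sequencing. The labels list 24 regions of interest, each cut into 2 segments, one stained for the microglial surface protein TMEM119 and the other for GFAP.

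The table has 5 columns headed 5xFAD-LynKO, 5 headed 5xFAD and 6 headed WT. 5xFAD is a transgenic line that expresses mutant human amyloid precursor protein and presenilin 1 from a neuronal promoter and deposits amyloid in the brain. The 5xFAD-LynKO mice carry the same transgenes and lack Lyn, a Src-family kinase of myeloid cells. The WT columns carry neither change, and the APP group that the design also names is not covered here. The sections came from brains fixed by perfusion. The labels do not state the age or sex of the mice, the brain area or the number of animals.

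No heading names a marker. They are treated here as TMEM119-positive segments, since the design text speaks of an analysis of microglia in these genotypes. Several regions may come from 1 animal, in which case p-values over regions are too small.

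Astrocytes are the glial cells that clear glutamate, buffer potassium and supply neurons with metabolites. After injury or around amyloid they enlarge and raise intermediate filament proteins, a state called reactivity in which GFAP is the most widely used marker. In the mouse brain, GFAP is abundant in astrocytes of white matter and hippocampus and sparse in much of the resting cortex. Because GFAP was also a protein used to choose segments, its RNA is not independent of how the regions were cut.

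The columns held 3206961 to 5793278 implied probe counts under 5xFAD-LynKO, 3205260 to 4148602 under 5xFAD and 1194199 to 2548495 under WT. Each level below is the signal divided by the median target of its column. The negative control probe, which matches no mouse transcript, stood at 0.911 to 0.968 times the column median under 5xFAD-LynKO, 0.933 to 0.957 under 5xFAD and 0.859 to 0.918 under WT. Above background here means a signal over 1.5 times that probe in 5 or more columns, as 3364 targets (16.9%) had. The columns held RNA of several cell types: 15 of 15 neuronal, 10 of 24 astrocyte identity, 7 of 19 microglial and 4 of 13 oligodendrocyte markers were above background. No marker was at 0, since the smallest signal of any column was at least 9 counting steps.

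Of the 10 genes, Gfap, Vim and S100b were above background. The other 7 were not, and only 22 of the 160 values of the 10 genes exceeded 1.5 times the negative probe. These were 8 values of Vim, 7 of Gfap, 5 of S100b and 2 of Serpina3n. Most of the values therefore lie where a change in RNA moves the signal little, and a log2 difference understates it.

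**Figure D1:**
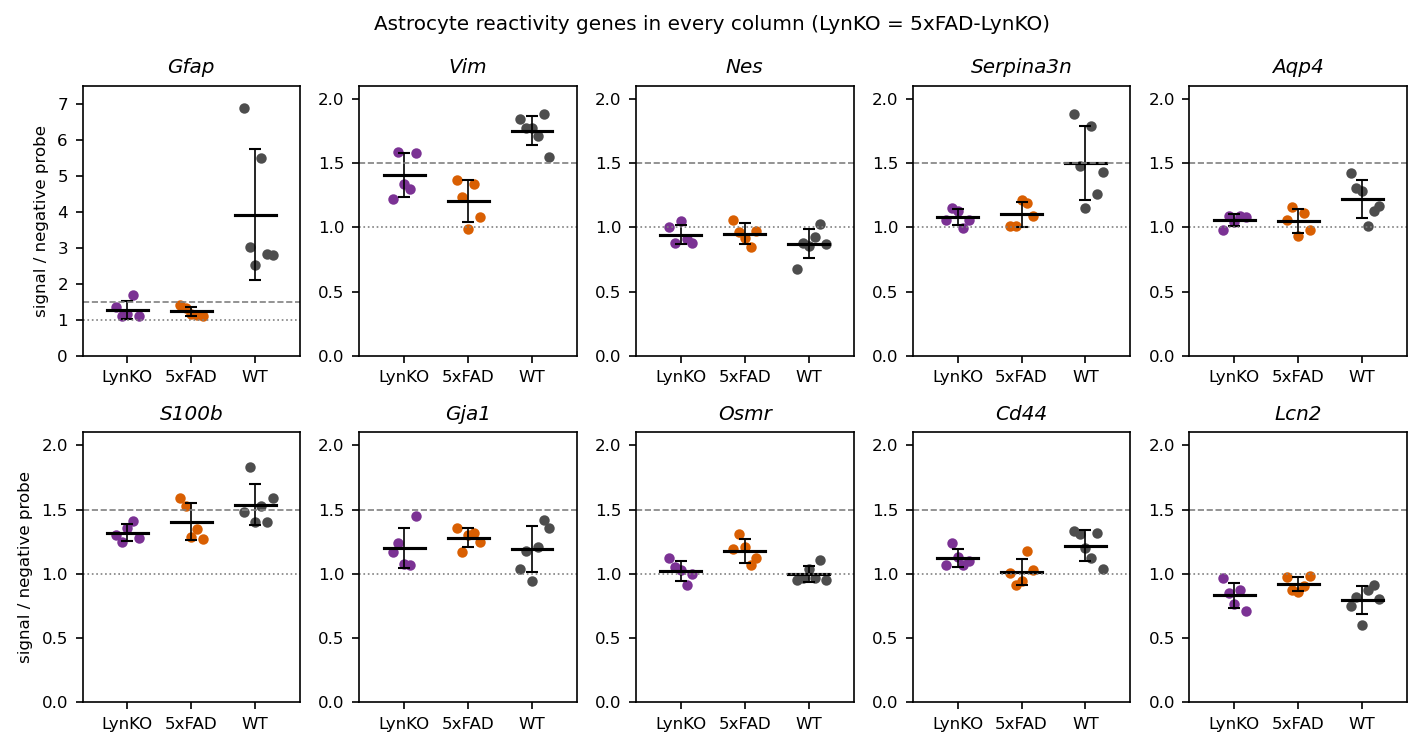
Signal of each gene divided by the negative probe, 1 point per column, with the mean (bar) and SD by genotype. The dotted line marks the negative probe and the dashed line 1.5 times it. The axis of Gfap runs to higher values than the others. Gfap lies at 1.11 to 1.70 in the 5xFAD-LynKO and 5xFAD columns and at 2.52 to 6.88 in the WT columns.

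The intermediate filament genes come first. Gfap, which encodes the filament protein that defines the reactive state, was at 1.31, 1.01, 1.11, 1.64 and 1.01 times the column median in the 5xFAD-LynKO columns. In the 5xFAD columns it was at 1.34, 1.26, 1.12, 1.07 and 1.06. In the WT columns it was lowest at 2.26, had a median of 2.59 and was highest at 6.18. Every WT column lay above every column of the other genotypes, whose ranges overlap each other. The WT columns themselves fell apart, with column 1 at 6.18 and column 4 at 4.94 and the other 4 between 2.26 and 2.60.

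Mean Gfap was 1.22 ± 0.27 times the column median under 5xFAD-LynKO, 1.17 ± 0.12 under 5xFAD (SD, n = 5 each) and 3.52 ± 1.6 under WT (SD, n = 6). As a ratio to the negative probe these means were 1.29, 1.23 and 3.93. Gfap thus stood near the probe background in both amyloid genotypes, where 1 of 10 columns exceeded 1.5 times the negative probe, against 6 of 6 under WT. The log2 difference was -1.43 ± 0.19 for 5xFAD-LynKO against WT and -1.47 ± 0.19 for 5xFAD against WT (SE). Among all 19962 targets the 5xFAD difference was the lowest (rank 1) and the 5xFAD-LynKO difference ranked 2 from the lowest. Both comparisons share the WT columns, and they are given as a description because Gfap was selected on them. In bulk segments, fewer astrocytes, less Gfap RNA per astrocyte, the cutting of segments and the placement of regions cannot be told apart. Nor can processing or normalization that differed by genotype be told apart from these. The deposited medians were 196, 159 and 86.7 under 5xFAD-LynKO, 5xFAD and WT, and every WT column held fewer implied counts than every other column.

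Both Gfap differences changed in size with the scaling. With the negative probe subtracted they were -3.46 for 5xFAD-LynKO and -3.53 for 5xFAD. With no rescaling between columns, which leaves in a shift of 1.17 and 0.88 log2 over all targets, they were -0.26 and -0.60. Targets above background also had medians of their own below 0, at -0.09 for 5xFAD-LynKO and -0.16 for 5xFAD against WT. These medians are not independent of the rule for this set, which favours targets high in WT.

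Between 5xFAD-LynKO and 5xFAD, the Gfap difference was 0.04 log2 (95% interval -0.36 to 0.44; limma adjusted p = 0.973).

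Vim, the filament protein vimentin that assembles with GFAP, was at 1.19, 1.45, 1.27, 1.25 and 1.44 in the 5xFAD-LynKO columns. It was at 1.31, 1.17, 0.948, 1.25 and 1.03 in the 5xFAD columns. In the WT columns it ran from 1.42 over a median of 1.56 to 1.69. The WT columns all lay above the 5xFAD columns and overlapped the 5xFAD-LynKO columns, where the 2 highest values exceeded the lowest WT value. The log2 difference from WT was -0.25 ± 0.09 for 5xFAD-LynKO and -0.46 ± 0.09 for 5xFAD (SE). Vim in 5xFAD-LynKO differed from 5xFAD by 0.21 log2 (interval 0.02 to 0.41), which did not pass over all targets (limma adjusted p = 0.371). Without rescaling between columns the 5xFAD difference from WT turned to 0.41. Vimentin is also made by endothelial cells and microglia, so its signal is not that of astrocytes alone.

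Nes encodes nestin, a filament protein of neural progenitors that some reactive astrocytes re-express. It averaged 0.890 ± 0.091 under 5xFAD-LynKO and 0.901 ± 0.079 under 5xFAD (SD, n = 5 each), and 0.782 ± 0.10 under WT (SD, n = 6). These are 0.945, 0.952 and 0.874 times the negative probe, so no Nes signal above background was measured in any genotype.

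**Figure D2:**
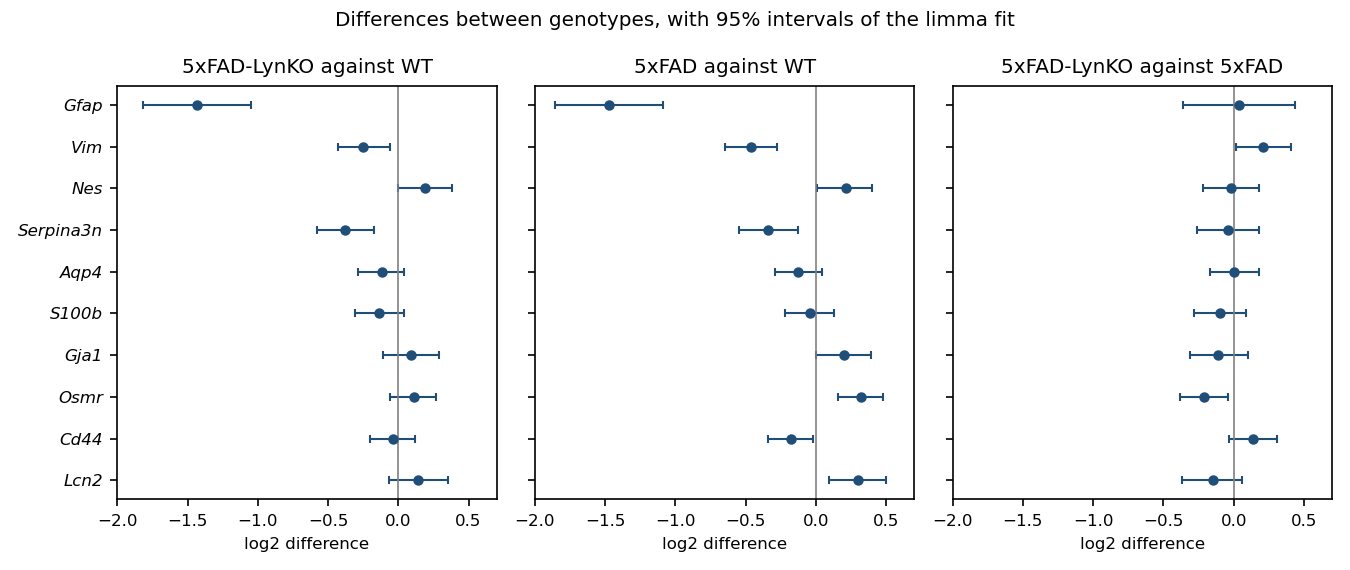
Log2 difference of each gene in the 3 comparisons, with the 95% interval from the limma fit. Gfap lies at -1.43 and -1.47 against WT and at 0.04 between the amyloid genotypes, and the other 9 genes lie between -0.46 and 0.32 in all 3.

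The genes of resting astrocyte functions follow. S100b, a calcium-binding protein of astrocytes and of some oligodendrocyte lineage cells, was at 1.26, 1.14, 1.29, 1.36 and 1.16 in the 5xFAD-LynKO columns and at 1.51, 1.44, 1.24, 1.26 and 1.20 in the 5xFAD columns. It ran from 1.25 over a median of 1.35 to 1.57 in the WT columns. All 3 groups overlap. Its log2 difference from WT was -0.14 ± 0.09 for 5xFAD-LynKO and -0.04 ± 0.09 for 5xFAD (SE).

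Aqp4, the water channel of astrocyte endfeet, averaged 0.994 ± 0.035 under 5xFAD-LynKO, 0.993 ± 0.079 under 5xFAD and 1.09 ± 0.12 under WT. Its highest ratio to the negative probe was 1.42, in WT column 1. Gja1, the gap junction protein connexin 43, averaged 1.13 ± 0.12 under 5xFAD-LynKO, 1.21 ± 0.071 under 5xFAD and 1.07 ± 0.17 under WT. Neither gene reached 1.5 times the negative probe in any column, and their groups overlap. The Gja1 difference of 0.20 for 5xFAD against WT runs opposite to that of Gfap.

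Of the secreted products, Serpina3n is a serine protease inhibitor that rises strongly in reactive astrocytes and also in oligodendrocytes of diseased brain. It was at 1.02, 1.05, 1.07, 0.957 and 0.966 in the 5xFAD-LynKO columns and at 0.961, 0.949, 1.16, 1.11 and 1.04 in the 5xFAD columns. In the WT columns it ran from 1.03 over a median of 1.29 to 1.69. WT columns 1 and 4 were highest, at 1.69 and 1.61, and were its 2 values over 1.5 times the negative probe, while WT columns 3 and 5 overlapped the amyloid genotypes. The log2 difference from WT was -0.38 ± 0.10 for 5xFAD-LynKO and -0.34 ± 0.10 for 5xFAD (SE). Without rescaling between columns the 5xFAD difference turned to 0.53. Lcn2, the iron-siderophore-binding lipocalin 2, averaged 0.786 ± 0.11 under 5xFAD-LynKO, 0.870 ± 0.056 under 5xFAD and 0.711 ± 0.10 under WT. It lay under the negative probe in 16 of 16 columns, so its difference of 0.30 for 5xFAD against WT is one between background values.

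Of the receptors, Osmr binds oncostatin M and signals through JAK kinases and STAT3. It was at 1.08, 0.961, 0.981, 0.876 and 0.911 in the 5xFAD-LynKO columns and at 1.13, 1.23, 1.16, 0.994 and 1.07 in the 5xFAD columns, and ran from 0.829 to 1.00 under WT with a median of 0.875. The highest values were in 5xFAD columns, but all groups overlap, with 5xFAD-LynKO column 1 above 5xFAD columns 4 and 5 and WT column 5 above 5xFAD column 4. The log2 difference was 0.11 ± 0.08 for 5xFAD-LynKO and 0.32 ± 0.08 for 5xFAD against WT (SE). Between 5xFAD-LynKO and 5xFAD it was -0.21 (interval -0.38 to -0.04), which did not pass (limma adjusted p = 0.298). No Osmr value exceeded 1.31 times the negative probe. Cd44, the hyaluronan receptor, averaged 1.05 ± 0.050 under 5xFAD-LynKO, 0.959 ± 0.091 under 5xFAD and 1.09 ± 0.096 under WT, and stayed under 1.5 times the negative probe in every column.

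The counts were read against the table as a whole. For 5xFAD against WT, Gfap, Vim and Serpina3n were among the 8.24% of targets called lower (limma, adjusted p under 0.05), and Osmr and Lcn2 among the 5.99% called higher. Columns did not overlap, on the lower side, for Gfap and Vim and for 2.91% of all targets. On the higher side they did not overlap for Lcn2 and for 2.19% of targets. For 5xFAD-LynKO against WT, only Gfap of the 10 was among the 0.0601% called lower, and 0 were among the 0.00501% called higher. Its columns were also the only ones of the 10 genes that did not overlap on the lower side, as for 0.311% of targets, with 0 on the higher side, against 0.346%. Under the alternatives that tested it, Lcn2 kept its 5xFAD call in 8 of 26 and Serpina3n in 17 of 26. Nothing is read from these counts, because the genes were chosen with both contrasts known.

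For 5xFAD-LynKO against 5xFAD, 0 of the 10 passed, as did 0% of all targets. By the same limma fit 2256 targets had an unadjusted p under 0.05, Vim and Osmr among them. None of the 10 had groups that did not overlap, against 2.69% of all targets. The median log2 difference of the 10 genes was -0.08 for 5xFAD-LynKO and for 5xFAD against WT and -0.03 between the 2, against 0.00, 0.01 and 0.00 over all targets. The split of calls for 5xFAD against WT, 1196 higher and 1645 lower on the column median, was 498 and 2952 on the negative probe and 1798 and 1200 on the upper quartile.

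Other astrocyte genes were then counted from lists chosen with earlier results of these data known. Of 24 astrocyte identity genes, 0 passed the test in 5xFAD-LynKO and 3 fell in 5xFAD against WT, where 8.24% of all targets were lower, and 0 rose. The falls were Glul (glutamine synthetase) at -0.82 ± 0.24 log2, Clu (clusterin) at -0.56 ± 0.14 and Htra1, a secreted serine protease, at -0.31 ± 0.10 (SE; limma adjusted p = 0.0244, 0.00955 and 0.0345). All 3 were above background, as were 10 of the 24 in total. Of the 3364 targets above background, 614 were lower and 14 higher in 5xFAD against WT, a split that the rule for this set favours. In 5xFAD-LynKO against WT Glul was at -0.57 (interval -1.06 to -0.07), Clu at -0.41 (-0.69 to -0.12) and Htra1 at -0.11 (-0.31 to 0.09), and none of the 24 passed in 5xFAD-LynKO against 5xFAD. Slc1a2, the main glutamate transporter, averaged 5.59 ± 2.0 times the column median under 5xFAD-LynKO, 4.77 ± 1.7 under 5xFAD and 7.93 ± 1.7 under WT, and did not pass in either contrast (adjusted p = 0.701 and 0.186). The list's median was -0.04 and -0.13, and 1 of the 24 passed without 5xFAD column 3 or 5. Astrocyte RNA was thus measured in all 3 genotypes, with summed levels of the list at 37.1 to 54.7 under 5xFAD-LynKO, 36.2 to 44.2 under 5xFAD and 45.2 to 59.9 under WT.

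Of 15 genes of disease-associated astrocytes other than the 10, 2 fell in 5xFAD-LynKO and 7 fell in 5xFAD against WT, and 0 rose in either. Against WT, 0.0601% of all targets were lower in 5xFAD-LynKO and 8.24% in 5xFAD. Of the 3364 targets above background, 7 and 614 were lower, again in a set that favours targets high in WT. C4b, complement C4, averaged 1.08 ± 0.038 under 5xFAD-LynKO, 1.07 ± 0.046 under 5xFAD and 1.84 ± 0.56 under WT, log2 differences of -0.71 and -0.72 (limma adjusted p = 0.0170 and 0.00144). Mt1, a metallothionein that binds zinc and copper, differed by -0.63 and -0.59 (adjusted p = 0.0170 and 0.00246). The other 5 that fell in 5xFAD were Igfbp5, an insulin-like growth factor binding protein, at -0.47, the metallothionein Mt2 at -0.44, the lipid carrier Apoe at -1.05, the protease inhibitor Cst3 at -1.17 and the tetraspanin Cd9 at -0.41. In 5xFAD-LynKO against WT these 5 did not pass, at -0.20 for Igfbp5, -0.41 for Mt2, -1.17 for Apoe, -1.05 for Cst3 and -0.40 for Cd9, and the difference between the amyloid genotypes passed for 0 of the 15. C4b and Igfbp5 were not above background. C4b, Apoe and Cst3 are also made by microglia or oligodendrocytes. Without WT columns 1 and 3, which are high in microglial genes, 4 of the 7 passed.

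Of 30 other reactive astrocyte genes, 0 passed in 5xFAD-LynKO, and 4 rose and 3 fell in 5xFAD against WT, where 5.99% of all targets were higher and 8.24% lower. Ptx3 (pentraxin 3) rose by 0.37, Fbln5 (fibulin 5) by 0.31, Emp1 (epithelial membrane protein 1) by 0.30 and Timp1 (a metalloproteinase inhibitor) by 0.26. Tgm1 (a transglutaminase) fell by 0.35, Iigp1 (an interferon-induced GTPase) by 0.35 and Tm4sf1 by 0.28. None of the 7 was above background, and the list's median was 0.00. The calls of this list ran from 1 to 8 genes when single columns were left out, with 1 without 5xFAD column 2, 2 without 5xFAD column 3 or WT column 2, 3 without 5xFAD column 5 and 4 without 5xFAD column 1 or WT column 3.

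Of 18 measured genes of the IL-6 family and JAK-STAT3 pathway, which drives Gfap transcription in cultured astrocytes, 0 passed in 5xFAD-LynKO, and 1 rose and 2 fell in 5xFAD against WT, where 5.99% of all targets were higher and 8.24% lower. The receptor genes Il6st (gp130, the shared signalling chain that pairs with the Osmr product) and Il6ra fell by 0.42 and 0.37 (limma adjusted p = 0.00336 and 0.00817), and the kinase gene Tyk2 rose by 0.29 (adjusted p = 0.0440). Stat3 itself averaged 1.18 ± 0.12 under 5xFAD-LynKO, 1.23 ± 0.099 under 5xFAD and 1.32 ± 0.084 under WT and did not pass (adjusted p = 0.580 and 0.433). Il6st, Il6ra and Tyk2 were not above background.

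Among 29 partners of the 10 gene products, Spp1, the secreted CD44 ligand osteopontin, was the only one that passed in 5xFAD-LynKO, by -0.79 log2 against WT (limma adjusted p = 0.0244). In 5xFAD-LynKO against WT 0.0601% of all targets were lower. In 5xFAD 4 of the 29 rose and 4 fell, where 5.99% of all targets were higher and 8.24% lower. All 3 hyaluronan synthases, which make the CD44 ligand, were among the rises, Has1 at 0.48, Has2 at 0.36 and Has3 at 0.34. Mmp9, the protease gelatinase B that binds the Lcn2 product, rose by 0.37. These 4 lay at 0.836 to 1.04 times the negative probe under 5xFAD, within the probe background. Spp1 fell by 0.92, Elane (neutrophil elastase) by 0.41, Lmna (lamin A) by 0.27 and Dtna (dystrobrevin alpha, of the complex that anchors aquaporin 4) by 0.26. Spp1, Lmna and Dtna were not above background, with Spp1 at 0.725 times the negative probe under 5xFAD-LynKO, 0.655 under 5xFAD and 1.38 under WT. In 5xFAD-LynKO against 5xFAD, 0 genes of any of these 5 lists passed.

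**Figure D3:**
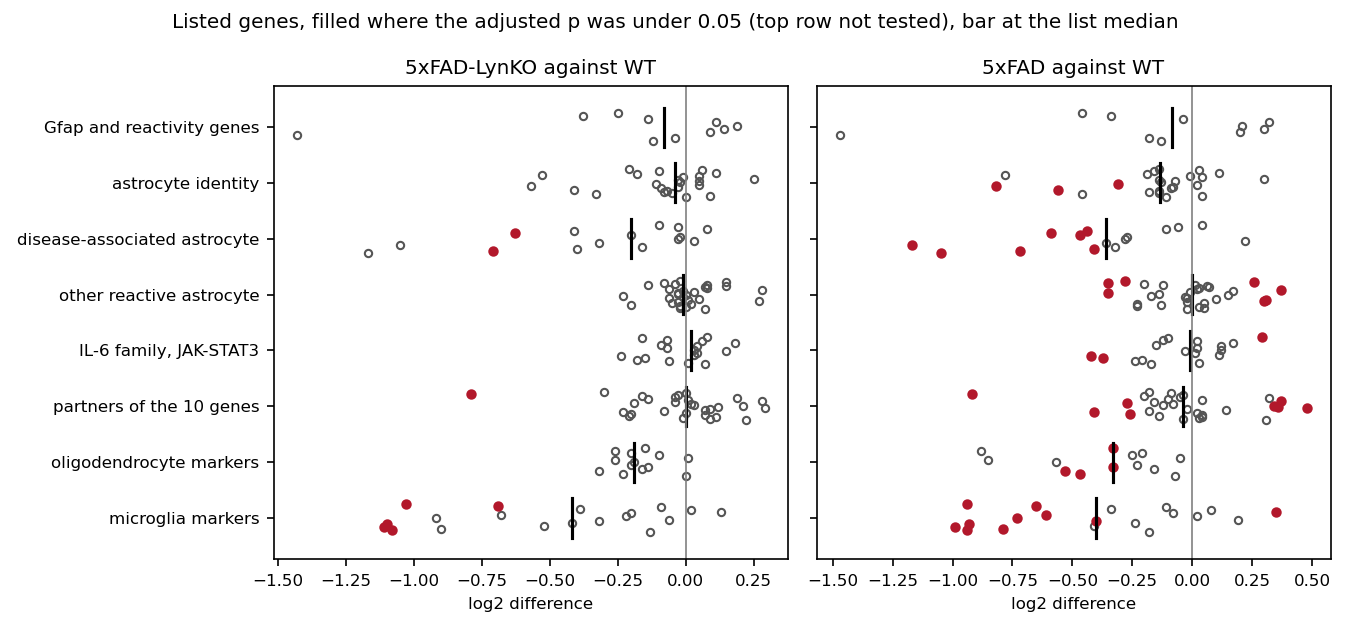
Log2 difference of each listed gene against WT, filled where the limma adjusted p was under 0.05, with the list median as a bar. The 10 genes in the top row were selected on these contrasts and are drawn open. The falls of the disease-associated astrocyte and microglia lists reach -1.17 and -1.11, while the other reactive astrocyte genes lie on both sides of 0.

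With no rescaling between columns, every fall named in the 5 lists that is smaller than the shift of 0.88 (5xFAD) or 1.17 (5xFAD-LynKO) turns positive. A change is therefore always relative to the median target of the column.

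Markers of other cells were summed in each column. A marker at the level of the negative probe still adds 0.859 to 0.968 to such a sum. The summed level of 19 microglial markers was 19.3 to 20.6 under 5xFAD-LynKO, 19.6 to 23.3 under 5xFAD and 23.2 to 49.5 under WT, where columns 1 and 3 had 49.5 and 44.0. That of 13 oligodendrocyte markers was 16.4 to 31.9 under 5xFAD-LynKO, 16.2 to 22.0 under 5xFAD and 16.6 to 48.0 under WT, where columns 1 and 4 had 48.0 and 37.5. That of 15 neuronal markers was 28.2 to 83.2 under 5xFAD-LynKO, 31.6 to 71.0 under 5xFAD and 39.8 to 116 under WT. The mean log2 level of the microglial list was 0.02 under 5xFAD-LynKO and 0.13 under 5xFAD, so the microglial sums there are in large part background. The part of these cell types in the Gfap difference was not tested beyond the values below. The oligodendrocyte and neuronal sums overlap between all genotypes. Of the oligodendrocyte markers 0 passed in 5xFAD-LynKO and 4 fell in 5xFAD against WT, and of the neuronal markers 0 passed and 1 fell. Of the microglial markers 5 fell in 5xFAD-LynKO, and 9 fell and 1 rose in 5xFAD. Of all targets, 0.0601% were lower in 5xFAD-LynKO, and 8.24% were lower and 5.99% higher in 5xFAD.

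WT columns 1 and 4, the highest in Gfap and Serpina3n, were thus also the highest in oligodendrocyte markers. The relation was therefore followed within genotypes, as deviations of the log2 level of each column from the mean of its genotype. These deviations do not contain the genotype difference by which Gfap was chosen. They are descriptions over 16 columns, which may share sections or animals and which differ in depth and probe background.

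Gfap deviations followed the mean of the oligodendrocyte markers, with Pearson r = 0.89 and Spearman rho = 0.87 over 16 columns. The r was 0.87 without the 2 columns farthest from the median of the oligodendrocyte mean and 0.79 without WT columns 1 and 3. Without WT columns 1 and 4, a choice made after these values were seen, it was 0.66 over 14 columns. It was 0.65 over the 10 columns of the amyloid genotypes and 0.98 over the 6 WT columns, where it was 0.88 without columns 1 and 4. Against the mean of the astrocyte identity genes the Gfap deviations ran the other way, with r = -0.46 and rho = -0.48 over 16 columns, and -0.63 over the 10 amyloid columns. Without the 2 columns farthest from the median of the identity mean these r were -0.38 and -0.38, and over the 6 WT columns the r of -0.46 turned to 0.16, so this relation rests in part on single columns. Against the microglial mean r was 0.34.

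**Figure D4:**
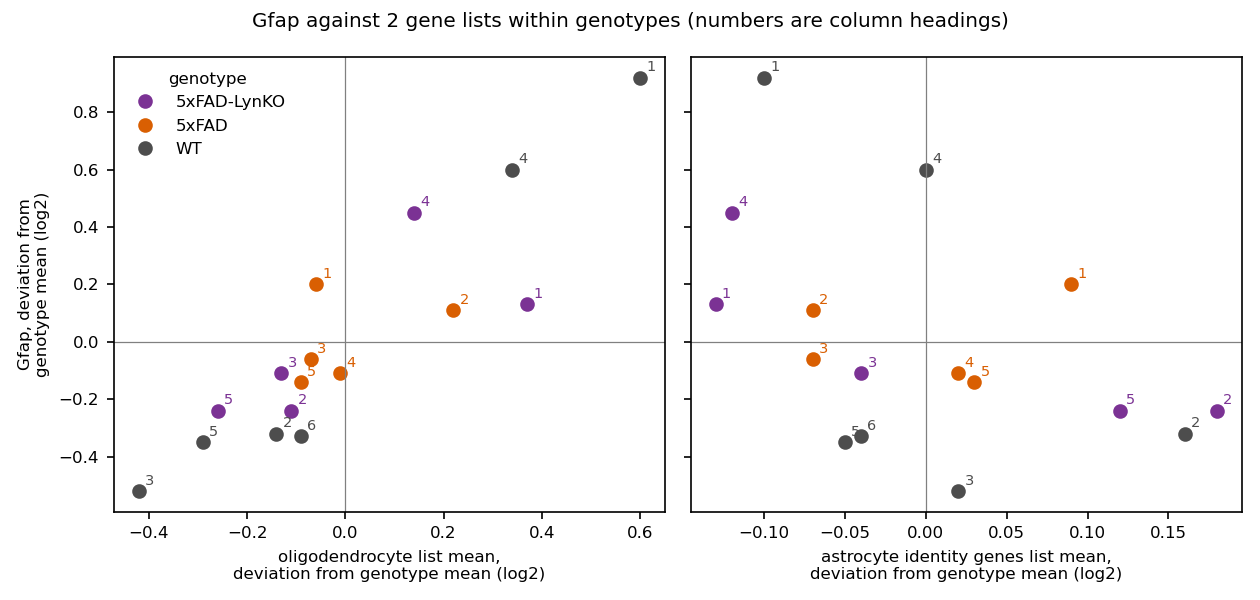
Deviation of Gfap from its genotype mean (log2) against that of the oligodendrocyte list mean (left) and the astrocyte identity list mean (right), 1 point per column with its heading number. In the left panel WT column 3 is lowest and WT column 1 highest on both axes (r = 0.89), and the right panel runs downward (r = -0.46).

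Of 3363 other targets above background, those whose deviations were most like those of Gfap were led by Apod (r = 0.94), the lipid-binding apolipoprotein D. Mbp (0.88), Cnp (0.88) and Mobp (0.85) encode proteins of the myelin sheath. Car2 (0.85), Trf (0.78) and Qk (0.76) encode carbonic anhydrase 2, transferrin and the RNA-binding protein quaking, all abundant in oligodendrocytes. Dbndd2 (0.87) and Csrp1 (0.87) were also among the 10 most alike. Mbp, Cnp and Mobp are in the oligodendrocyte list. Without WT columns 1 and 4, Apod (0.82), Dbndd2 (0.68), Mobp (0.68) and Mbp (0.65) stayed among the 10 most alike, and S100b (0.72) was among those that joined them.

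By level over all 16 columns, which includes the genotype difference, the 10 most alike were Gm52436 (r = 0.92), Qk (0.90), Ptma (0.87), Dbndd2 (0.86), LOC118568632 (0.85), Trf (0.85), Csrp1 (0.85), Rhob (0.85), Gm52800 (0.85) and Apod (0.83). Qk, Dbndd2, Trf, Csrp1 and Apod are thus in both sets.

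Gfap was also read at like oligodendrocyte levels. 5xFAD-LynKO column 5 had a summed oligodendrocyte level of 16.4 with Gfap at 1.01, and 5xFAD columns 1, 3, 4 and 5 had sums of 16.2 to 17.2 with Gfap at 1.06 to 1.34. WT column 3 had a sum of 16.6 and Gfap at 2.26. The 2 highest sums of the amyloid columns were 31.9 in 5xFAD-LynKO column 1 and 25.9 in column 4, both above 4 of the 6 WT columns, with Gfap at 1.31 and 1.64. 5xFAD column 2 had a sum of 22.0 with Gfap at 1.26, and WT columns 2 and 6 had 22.0 and 23.0 with Gfap at 2.60 and 2.58. With the oligodendrocyte mean as a covariate, the Gfap difference from WT was -1.21 for 5xFAD-LynKO and -0.98 for 5xFAD. It was -1.33 and -1.37 without WT columns 1 and 3, and -1.05 and -1.09 without WT columns 1 and 4. The covariate and the last setting were added after the data were seen. Whether regions of different genotypes were placed in different brain areas was not tested.

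The other genes followed Gfap unevenly within genotypes. Serpina3n deviations had r = 0.67 with Gfap over 16 columns and -0.21 without WT columns 1 and 4, so that relation rests on those columns. Vim had r = 0.02 with Gfap, and S100b had 0.24 with all columns and 0.72 without WT columns 1 and 4. Vim deviations instead had r = 0.71 with the astrocyte identity mean and -0.83 with the microglial mean over the 10 amyloid columns, against -0.34 and 0.43 over the 6 WT columns. With the neuronal mean they had 0.62 and -0.14. The amyloid columns highest in Vim, 5xFAD-LynKO columns 2 and 5 (1.45 and 1.44), also had the lowest negative probe, at 0.914 and 0.911. The microglial mean itself lay near the probe background in the amyloid columns, and the part of probe background in these r was not tested. Aqp4, Nes, Gja1, Osmr, Cd44 and Lcn2 had r of -0.27 to 0.31 with Gfap. Without WT columns 1 and 4, Nes turned from -0.27 to 0.40 and Lcn2 had 0.53.

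The promoters of Gfap, Vim and Serpina3n are shown because Gfap and Serpina3n were highest in the same WT columns while Vim was not. Each is the 250 bases before the annotated start, 5′ to 3′ on the gene's strand, from RefSeq (GRCm38.p6), a build used here for sequence only, with motif matches in capitals.
Gfap, chr11:102897201-102897450, minus strand: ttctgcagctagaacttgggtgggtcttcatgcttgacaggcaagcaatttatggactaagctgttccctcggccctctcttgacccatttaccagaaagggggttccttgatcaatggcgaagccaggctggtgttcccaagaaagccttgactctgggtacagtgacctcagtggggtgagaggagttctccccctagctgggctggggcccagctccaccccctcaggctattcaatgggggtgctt
Vim, chr2:13574061-13574310, plus strand: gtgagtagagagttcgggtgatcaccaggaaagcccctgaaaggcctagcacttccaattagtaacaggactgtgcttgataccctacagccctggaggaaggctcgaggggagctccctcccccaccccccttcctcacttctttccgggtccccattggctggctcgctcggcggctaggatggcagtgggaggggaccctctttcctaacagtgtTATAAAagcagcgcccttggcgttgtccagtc
Serpina3n, chr12:104406458-104406707, plus strand: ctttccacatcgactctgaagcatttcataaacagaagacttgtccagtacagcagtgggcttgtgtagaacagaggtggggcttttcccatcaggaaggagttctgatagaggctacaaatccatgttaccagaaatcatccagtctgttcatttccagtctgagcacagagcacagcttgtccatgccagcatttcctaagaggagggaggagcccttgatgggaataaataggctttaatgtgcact

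A promoter was matched by symbol for 9 of the 10 genes, Aqp4 being the exception. The STAT motif TTCNNNGAA, searched on both strands, was in 0 of the 9 windows and in 7.02% of 32851 promoters of the same length. The AP-1 motif TGANTCA was in that of Gja1 and in 6.75% of all. The letters TATAAA were in that of Vim, 32 bases before the start, and in 12.4% of all. A match describes these letters in this window and is not a site of binding. With a share of 7.02%, 0 of 9 windows does not set these genes apart. An absent match says nothing of sites outside the window.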

How the data were processed

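GeoMx probe tags of segments of fixed mouse brain sections were sequenced, per the labels' protocols. The deposited table gives a signal per target, never negative, for 16 columns whose headings give genotype and column number. Neither software nor normalization is given in the sources used here. Within each column 19959 targets were whole multiples of 1 step (tolerance 1e-06), so implied counts were the signal over that step. The deposited medians were 196, 159 and 86.7 under 5xFAD-LynKO, 5xFAD and WT, equal within each genotype, and levels were therefore divided by the column median.

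Differences came from limma 3.58.1, run in R 4.3.3 with lmFit, contrasts and a trended eBayes, on log2(signal + 1) minus the column median, over 19962 targets and all 16 columns, with Benjamini-Hochberg adjustment and calls at an adjusted p under 0.05. The pseudocount was 1, no filter on low values was used, and intervals are 95%. No covariate entered the fit. The steps were tested on simulated data. No column was matched to a single labelled segment, and whether columns are separate animals is unknown, and the p-values then reflect only how regions vary. Pairs of columns of a genotype differed by 1.16 to 6.64 chi-square per degree of freedom of the implied counts, so no 2 columns were identical. A value near 1 is what counting alone would give. Repeats of 1 region are therefore not excluded for pairs such as WT columns 5 and 6 (1.16) or 5xFAD columns 3 and 5 (1.18).

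The 10 genes, the lists and the tests were chosen with earlier results of these data known. No p-value is therefore printed for contrasts of the 10 genes with WT. Their calls are given as descriptions only, beside the shares of all targets and under the alternatives. Genes named are the 10, from each list up to 4 called genes in each direction, taken by smallest adjusted p, with at most 2 abundant genes that were not called, and the 10 most like Gfap by level and by deviation, of which 1 by deviation is not reported here. In the disease-associated list, Apoe, Cst3 and Cd9 were named beyond these 4 after their values were seen. Figures were drawn with matplotlib 3.10.9.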

Additional observations from a re-analysis of the deposited data

Results flagged for a closer look

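The mean log2 level of the oligodendrocyte list was 0.53 in 5xFAD column 2, apart from the other 4 columns of its genotype at 0.21 to 0.30. Gfap in that column was 1.26 times the column median, within the 1.06 to 1.34 of the 5xFAD columns. The mean of the oligodendrocyte precursor list was -0.09 in 5xFAD column 1, apart from the others at 0.01 to 0.05. None of the 6 genes of the precursor list was above background. Each mean is the lowest or highest of its 5 columns by Dixon's criterion, which chance meets in about 1 of 20 groups and which 2 of 66 groups met. No level of the 10 genes stood apart in this way.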

How the results depend on the processing

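Gfap stayed lower against WT in both amyloid genotypes under every alternative run, with extremes at no rescaling between columns (-0.26 for 5xFAD-LynKO, -0.60 for 5xFAD) and negative probe subtracted (-3.46, -3.53), and it was no longer called in 5xFAD-LynKO without rescaling. Leaving out single columns gave -1.54 to -1.25 and -1.58 to -1.29, and -0.07 to 0.10 between 5xFAD-LynKO and 5xFAD. Without rescaling, all of the 10 genes but Gfap were called higher than WT in each amyloid genotype (9 of 10 each). Vim, Serpina3n, Aqp4, S100b and Cd44 thereby changed sign in both, with Vim at 0.41 and Serpina3n at 0.53 in 5xFAD. Between the amyloid genotypes, Nes (0.28), Serpina3n (0.26) and S100b (0.20) turned positive and were among 6 genes called higher in 5xFAD-LynKO. Targets called for 5xFAD-LynKO against WT (13) were 19929 without rescaling, 5 above background only, 8 without WT columns 1 and 3 and with the oligodendrocyte covariate, and 2 with only these genotypes fitted. For 5xFAD against WT (2841) they were 19827 without rescaling, 1169 with the negative probe subtracted, 597 above background only and 1641 without WT columns 1 and 3. For 5xFAD-LynKO against 5xFAD (0) they were 15004, 9 with the negative probe subtracted, 1 without WT columns 1 and 3, 13 with the covariate, 2 without WT columns 1 and 4 and 4 with only these genotypes. Disease-associated astrocyte genes passing in 5xFAD-LynKO against WT (2) were 13 without rescaling, 1 with the negative probe subtracted or above background only, and 0 without WT columns 1 and 4 or with only these genotypes. In 5xFAD against WT (7) they were 12 without rescaling and 4 above background only or without WT columns 1 and 3. Of the other reactive genes in 5xFAD (7), 30 passed without rescaling, 2 with the negative probe subtracted, 0 above background only and 4 without WT columns 1 and 3, and of the identity genes (3) 22 without rescaling and 1 to 4 with single columns left out. Leaving out single columns gave 3 to 16, 1400 to 3816 and 0 to 129 called targets in the 3 comparisons, and 0 to 3 and 5 to 8 disease-associated genes against WT. The lowest counts came without 5xFAD columns 2 (1629), 3 (1418) or 5 (1400), and without 5xFAD-LynKO columns 1 (4), 2 (6), 3 (3) or 5 (7) or WT column 3 (6), and the 129 without 5xFAD column 4. Apart from the shift that rescaling removes, and the fewer targets or columns in some fits, the cause was not tested. Whether equal heading numbers pair the columns was not settled. Correlations of same-numbered deviations ran from -0.39 to 0.67, and columns of unlike numbers were not compared. With the numbers as a replicate block the calls were 17, 2617 and 0 and Gfap -1.50, -1.54 and 0.04. The edgeR test was not run, because the smallest signals lay 9 to 66 steps above 0. The level of the negative probe limits the 7 genes that were not above background, where small differences are understated. It also limits the differences of Gfap and Vim from WT. Under 5xFAD these 2 genes averaged 1.23 and 1.21 times the probe, with 0 of 5 columns over 1.5 times it.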
